A study of Mus musculus with 2 samples.

Results

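The amyloid precursor family and the proteins that cut or bind its members were followed in ribosome footprints from the brain of the neonatal mouse. The set held 9 genes of the 45578 in the deposited table: the precursors App, Aplp1 and Aplp2, the secretase genes Bace1, Adam10, Psen2 and Ncstn, and the integral membrane genes Itm2b and Itm2c. They were chosen by symbol, read from the transcript name without its trailing number, and all 9 were found, each under a single gene identifier. Footprints are the stretches of mRNA that translating ribosomes protect from nuclease, here taken from pooled polysome fractions, so a count reports ribosomes on a transcript and not protein.

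Both brains came from control mice at postnatal day 5, of genotype Smn+/-; SMN2tg/0 on the FVB background. Each animal thus carried 1 disrupted copy of mouse Smn and the human SMN2 transgene, and an animal with both mouse copies intact was not analysed here. The libraries are biological replicates 1 and 2 of this single group (n = 2), so no treatment or genotype is compared. What the data can show is how much of the brain's ribosome traffic each gene held, how the genes stood to each other, and how far the 2 libraries gave the same picture. Replicate 1 held 1866831 footprints and replicate 2 held 5261878, a ratio of 2.82. Levels are given as CPM, the count of a gene scaled to 1000000 footprints of the library. On a floor of 3 counts, a gene without footprints could still have had 1.61 CPM in replicate 1, and 0.570 in the deeper library.

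App is a membrane protein with a large outer part and a short tail in the cytoplasm. Its outer part is shed either by an alpha-secretase, chiefly Adam10 in neurons, or by the beta-secretase Bace1, and gamma-secretase then cuts the remaining stub within the membrane. Amyloid-beta is the peptide released when beta- and gamma-cleavage follow each other; Aplp1 and Aplp2 are cut by the same enzymes but lack its sequence. Gamma-secretase is a complex of a catalytic presenilin such as Psen2, nicastrin (Ncstn), an Aph1 protein and Psenen, and it also cuts Notch and many adhesion proteins. Itm2b and Itm2c, also called BRI2 and BRI3, belong to another family of membrane proteins with a BRICHOS domain, which bind App and reduce its cleavage.

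The precursors and the Itm2 genes carried many ribosomes per coding length and the secretases fewer. Together the 9 genes took 0.290% ± 0.0655 of the footprints (SD, n = 2). The share was 0.336% in replicate 1, with a Clopper-Pearson 95% interval of 0.328 to 0.344, against 0.243% (0.239 to 0.248) in replicate 2, so it differed between the libraries by more than counting error. The 3 precursors held most of it, at 0.197% ± 0.0594. The Itm2 pair held 0.0561% ± 0.0115 and the 4 secretase genes 0.0368% ± 0.00539. Genes are compared here per length, as CPM per kilobase of the longest annotated coding sequence of the gene. On this scale the median of the 13349 tested coding genes was 23.5, where tested means a mean count of at least 10.

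App was the precursor with the most footprints. It had 2052 footprints in replicate 1 and 3247 in replicate 2, or 1099 CPM (95% interval 1052 to 1148) and 617 CPM (596 to 639). Replicate 1 was the higher and the intervals did not overlap. Per coding kilobase App had 526 CPM in replicate 1 and 296 CPM in replicate 2. The mean of these was 411 ± 163 (SD, n = 2), at percentile 97.8 of the tested coding genes. Counted along the coding sequence with its stop codon, App had 2.95 footprints per codon in replicate 1 and 4.67 in the deeper replicate 2.

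Aplp1, a family member found mainly in neurons, had 1302 footprints in replicate 1 and 2143 in replicate 2. In CPM these are 697 (660 to 736) and 407 (390 to 425), again higher in replicate 1 without overlap. The mean level per coding kilobase of Aplp1 was 281 ± 104 CPM, at percentile 95.8. Aplp2, the family member with the widest expression across tissues, had 1102 and 2751 footprints, or 590 CPM (556 to 626) and 523 CPM (503 to 543). The libraries lay closer together for Aplp2 than for the other precursors, although its intervals did not overlap either. Per coding kilobase Aplp2 had 262 CPM in replicate 1 and 232 CPM in replicate 2, with a mean of 247 ± 21.2 at percentile 94.8.

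The order within the family was not the same in both libraries. In replicate 1 the levels per coding kilobase fell from App to Aplp1 at 355 CPM and Aplp2 at 262 CPM. In replicate 2 App was again first, but Aplp2 at 232 CPM stood above Aplp1 at 207 CPM. App exceeded Aplp1 1.48-fold (95% counting interval 1.38 to 1.59) in replicate 1 and 1.43-fold (1.35 to 1.51) in replicate 2, and these intervals overlapped. The ratio of App to Aplp2 was 2.01 (1.87 to 2.17) in replicate 1 and 1.28 (1.21 to 1.34) in replicate 2. That of Aplp1 to Aplp2 was 1.36 (1.25 to 1.47) and 0.894 (0.845 to 0.947), on either side of 1. A ratio of genes within 1 library does not depend on how the libraries are scaled.

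Itm2b, the gene behind familial British and Danish dementia in humans, stood level with App per coding kilobase. It had 736 footprints in replicate 1 and 1389 in replicate 2, or 394 CPM (366 to 424) and 264 CPM (250 to 278). Because its coding sequence of 801 nucleotides is short against the 2088 of App, the fewer footprints of Itm2b gave a level per coding kilobase of 492 CPM and 330 CPM, with a mean of 411 ± 115. The ratio of Itm2b to App was 0.935 (0.858 to 1.02) in replicate 1 and 1.12 (1.05 to 1.19) in replicate 2. The interval of replicate 1 includes 1, so only replicate 2 set the pair apart by more than counting error, with Itm2b the higher. Itm2c had 464 and 1137 footprints, or 249 CPM (226 to 272) and 216 CPM (204 to 229), and here the intervals overlapped. Its mean per coding kilobase was 287 ± 28.3 CPM, at percentile 95.9. Itm2b exceeded Itm2c 1.60-fold (1.43 to 1.81) in replicate 1 and 1.24-fold (1.14 to 1.34) in replicate 2.

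The third gene of this family, Itm2a, was lower than both. Its level per coding kilobase was 118 CPM in replicate 1 and 96.9 CPM in replicate 2. Itm2b exceeded Itm2a 4.16-fold (3.52 to 4.93) and 3.40-fold (3.04 to 3.81) in the 2 libraries.

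**Figure D1:**
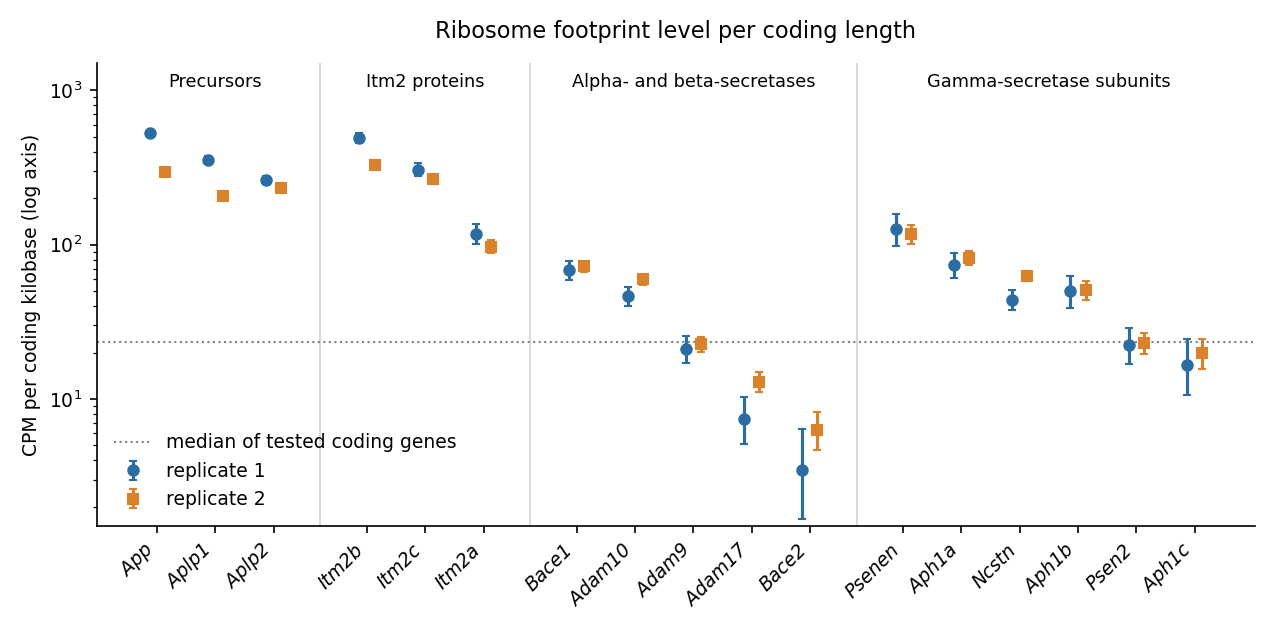
CPM per kilobase of the longest coding sequence, on a log axis, for the 9 genes and 8 other genes of the same enzymes and families, with replicate 1 as blue circles and replicate 2 as orange squares; bars are 95% counting intervals and the dotted line is the median of the tested coding genes, 23.5. App, Aplp1, Aplp2, Itm2b and Itm2c lie above 200 in both libraries, and every secretase gene shown but Psenen lies under 100.

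Bace1 and Adam10 make the rival first cuts of App, and their footprint levels were of the same order. Bace1, the beta-secretase, had 192 footprints in replicate 1 and 573 in replicate 2, or 103 CPM (88.8 to 118) and 109 CPM (100 to 118). These values overlapped. Adam10, the alpha-secretase, had 194 and 704 footprints, or 104 CPM (89.8 to 120) and 134 CPM (124 to 144), with the higher value in replicate 2; the test given further on did not call it. Per coding kilobase Bace1 stood at 70.3 ± 2.84 CPM and Adam10 at 52.8 ± 9.39 CPM (SD, n = 2). The ratio of Adam10 to Bace1 was 0.676 (0.551 to 0.830) in replicate 1 and 0.822 (0.735 to 0.920) in replicate 2.

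Their order rests on the length used. Bace1-001 has a 3' untranslated region of 4104 nucleotides, and coding sequence makes up 24.9% of the transcript. Divided by the longest transcript in place of the coding sequence, Bace1 had 17.5 CPM per kilobase and Adam10 25.9, and the ratio of Adam10 to Bace1 became 1.48.

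App stood well above both of these enzymes. It exceeded Adam10 11.4-fold (9.83 to 13.3) per coding kilobase in replicate 1 and 4.97-fold (4.58 to 5.40) in replicate 2, and Bace1 7.71-fold (6.65 to 8.98) and 4.09-fold (3.74 to 4.47). In all 4 ratios the substrate was higher, and for each enzyme the intervals of the libraries did not overlap. The size of the ratios depends on the basis. The mean ratio of App to Adam10 was 8.18 and became 16.2 on coding transcripts alone, and that of App to Bace1 was 5.90 and became 15.8 per kilobase of the longest transcript.

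Related proteases were lower. Adam17, which sheds tumour necrosis factor and can act as an alpha-secretase, had 7.38 CPM per coding kilobase in replicate 1 and 12.9 in replicate 2. Adam10 exceeded Adam17 6.26-fold (4.35 to 9.25) and 4.60-fold (3.89 to 5.46). Adam9, another member of that protease family, had 21.1 and 22.6 CPM per coding kilobase. Bace2, the close relative of Bace1, had 10 footprints in replicate 1 and 51 in replicate 2. Bace1 exceeded Bace2 19.7-fold per coding kilobase (10.5 to 41.7) in replicate 1 and 11.5-fold (8.65 to 15.7) in replicate 2.

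Among the gamma-secretase subunits described here, Psen2 was at the bottom with Aph1c per coding kilobase. Psen2, a presenilin, had 56 footprints in replicate 1 and 162 in replicate 2, or 30.0 CPM (22.7 to 39.0) and 30.8 CPM (26.2 to 35.9), which overlapped. Its mean per coding kilobase of 22.6 ± 0.415 CPM lay at percentile 48.9, the lowest of the 9 genes. The place among the subunits rests on this basis. Divided by the longest transcript, Psen2 stood above Aph1b, with 30.4 CPM on 2020 nucleotides against 38.9 CPM on 5102. On coding transcripts alone Ncstn was below Psen2, as given further on.

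Ncstn, which encodes the subunit with the large outer domain, had 174 footprints in replicate 1 and 698 in replicate 2. In CPM these are 93.2 (79.9 to 108) and 133 (123 to 143), higher in replicate 2 without overlap. The mean of Ncstn per coding kilobase was 53.1 ± 13.1 CPM. The ratio of Ncstn to Aph1a was 0.593 (0.465 to 0.761) in replicate 1 and 0.759 (0.666 to 0.866) in replicate 2. This order rests on coding length, 2127 nucleotides for Ncstn and 798 for Aph1a. Their longest transcripts have 3016 and 2863 nucleotides, and in mean CPM Ncstn was the higher, at 113 against 62.2. Coding transcripts held 27.0% and 30.8% of the footprints of Ncstn in the 2 libraries, and 83.6% and 74.5% of those of Aph1a.

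The small subunit Psenen had the highest level of these subunits per coding length, with 126 CPM per coding kilobase in replicate 1 and 117 in replicate 2. It exceeded Ncstn 2.88-fold (2.15 to 3.81) and 1.87-fold (1.59 to 2.20). Its coding sequence has 306 nucleotides on a transcript of 648. Counts belong to whole transcripts, so fragments outside the coding sequence add to a level per coding kilobase. Their weight depends on the coding part of the transcript, which is smaller for Aph1a than for Psenen. Of the alternative Aph1 subunits, Aph1a had 78.0 ± 5.89 CPM per coding kilobase, Aph1b 50.2 ± 0.531 and Aph1c 18.2 ± 2.31. Aph1b and Aph1c are close copies in the mouse, and their counts are uncertain to the extent that fragments match both.

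**Figure D2:**
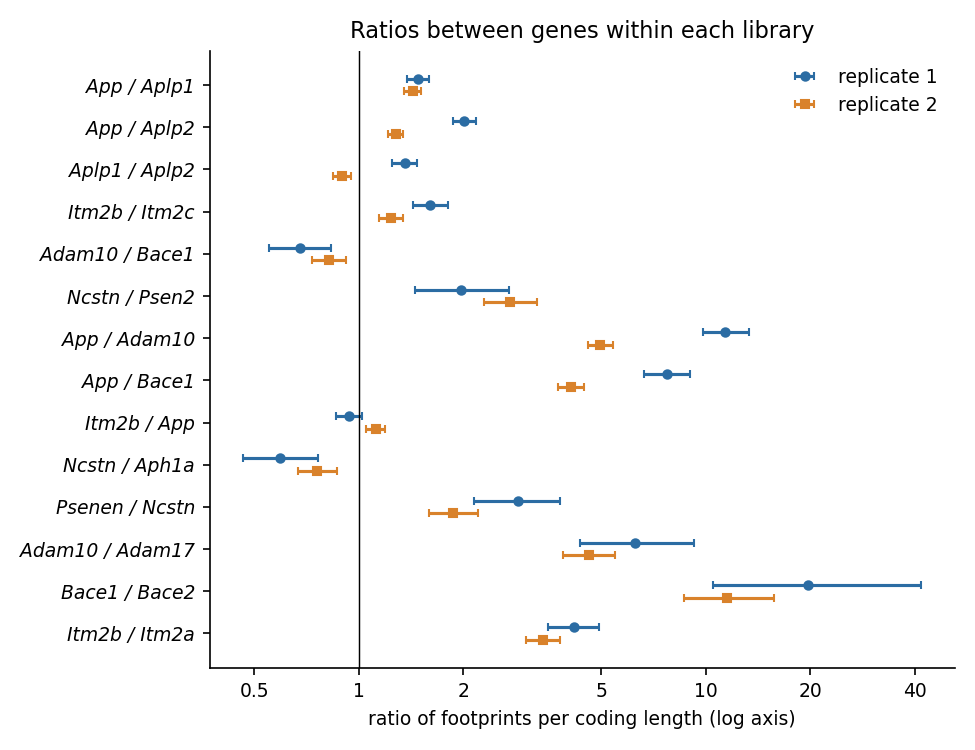
Ratio of footprints per coding length between 2 genes of the same library, on a log axis, for 14 pairs, with replicate 1 as blue circles and replicate 2 as orange squares; bars are 95% intervals that cover counting error alone and the vertical line marks equal levels. The intervals of App over Aplp2, Aplp1 over Aplp2, Itm2b over Itm2c, App over Adam10, App over Bace1 and Itm2b over App do not overlap between the libraries, and those of the other 8 pairs do.

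By mean level per coding kilobase the order was App, Itm2b, Itm2c, Aplp1, Aplp2, Bace1, Ncstn, Adam10 and Psen2. The 5 precursor and Itm2 genes were above all 4 secretase genes in each library. Neighbours in this order whose replicate values overlapped were App and Itm2b, Itm2c and Aplp1, Aplp1 and Aplp2, and Ncstn and Adam10. Ncstn and Adam10 also had overlapping counting intervals in both libraries. The step from Aplp2 to Bace1 was 3.83-fold in replicate 1 and 3.20-fold in replicate 2, and that from Adam10 to Psen2 was 2.07-fold and 2.60-fold. Divided by the longest transcript instead, the order at the top was App at 274 CPM per kilobase, Aplp1 at 231, Itm2b at 186, Aplp2 at 152 and Itm2c at 104, and the ratio of Itm2b to App was 0.694 in place of 1.03. The precursor and Itm2 genes stayed above the secretase genes on this scale, where Ncstn came next at 37.4.

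The table splits a gene's footprints over its annotated transcripts, and the genes differed in how many of them were coding. App, Aplp1 and Itm2b were each represented by 1 coding transcript, and Aplp2 by 2. Any further transcripts of these genes were not analysed here, so for App, Aplp1 and Itm2b the total and the coding share rest on a single entry. The App transcript, App-201, encodes 695 residues, the length of the form that predominates in neurons; longer App forms, which carry a protease inhibitor domain, were not analysed here. Aplp2-201 and Aplp2-202, with coding sequences of 2256 and 2124 nucleotides, took 51.3% and 48.7% of the footprints of Aplp2 in replicate 1 and 52.9% and 47.1% in replicate 2. The treatment of fragments that match several transcripts is not given in the sources used here, so these shares are not isoform levels.

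Psen2 shows how thin the split can be. Its 12 transcripts include 4 with coding sequences of 1347 nucleotides, Psen2-001, Psen2-002, Psen2-003 and Psen2-005. They held 11, 12, 8 and 8 footprints in replicate 1 and 27, 26, 21 and 20 in replicate 2. Psen2-004 went from 2 footprints to 26, but the coding transcripts together held 75.0% of the gene's footprints in replicate 1 and 75.3% in replicate 2.

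For Ncstn the annotated coding transcript held a minority of the footprints. Ncstn-001, with 708 codons, took 27.0% of them in replicate 1 and 30.8% in replicate 2. Transcripts annotated as targets of nonsense-mediated decay, the pathway that destroys mRNAs with early stop codons, took 60.3% and 56.3%, and retained introns 12.6% and 12.9%. The decay transcripts Ncstn-002 and Ncstn-003 have coding sequences of 189 nucleotides on transcripts of 3016 and 2777, close to the 2901 of Ncstn-001. Per kilobase of transcript, Ncstn-001, Ncstn-002 and Ncstn-003 held 16.2, 17.9 and 18.4 footprints in replicate 1 and 74.1, 71.9 and 63.4 in replicate 2. How fragments that match several transcripts were assigned is not given. The shares of Ncstn are therefore not levels of its coding or decay forms either.

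Adam10 was similar in kind. The decay transcript Adam10-002 took 49.0% of its footprints in replicate 1 and 43.3% in replicate 2, and the full coding transcript Adam10-001 took 40.7% and 45.5%. Coding transcripts held 81.2% and 78.7% of the footprints of Bace1 and 83.8% and 85.5% of those of Itm2c. Over the tested coding genes the median share on coding transcripts was 91.0%, with quartiles of 67.6% and 100%. Adam10 and Ncstn thus lay below the lower quartile, and this is a description of where the deposited counts sit. Counting coding transcripts alone, with CPM scaled to footprints on coding transcripts, put Ncstn at 20.6 CPM per coding kilobase and Adam10 at 36.3. Psen2 stood at 22.5, above Ncstn. This scale raises every value: App, with all its footprints on a coding transcript, went from 411 to 543. Scaled to the whole library, the coding levels of Ncstn, Adam10 and Psen2 are thus lower than these values.

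**Figure D3:**
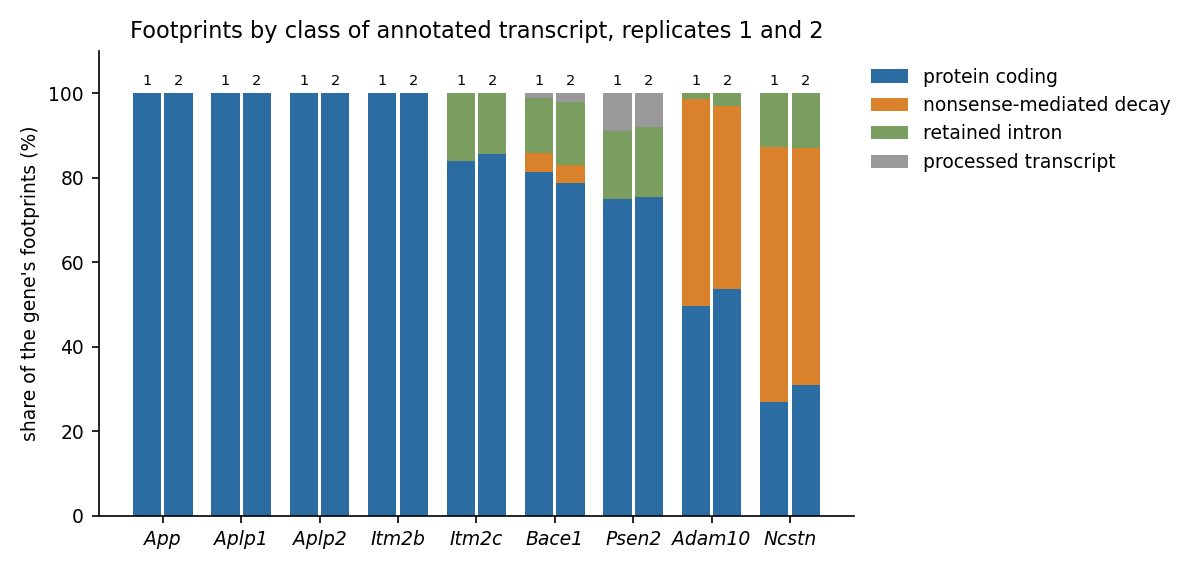
Share of each gene's footprints, in percent, on transcripts annotated as protein coding, nonsense-mediated decay targets, retained introns or processed transcripts, with replicates 1 and 2 side by side and no error shown. Coding transcripts hold all footprints of App, Aplp1 and Itm2b, each a single entry, and of Aplp2, and 27.0% and 30.8% of those of Ncstn.

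Several of these genes differed between the 2 libraries by more than counting noise. The 3 precursors and both Itm2 genes were lower in replicate 2 and Ncstn was higher, while Bace1, Adam10 and Psen2 did not pass the test. Each gene's counts were set against the ratio of the library sizes after TMM scaling (trimmed mean of M values) with a two-sided exact binomial test, and p-values were adjusted by Benjamini-Hochberg over all 16427 genes tested. The test compares 2 libraries and not conditions, and it covers counting error alone. It called 6 of the 9 genes, 5 lower and 1 higher in replicate 2. Over all tested genes it called 17.4%, with 11.5% lower and 5.95% higher in replicate 2. At a mean count of at least 100, which all 9 genes reach, it called 34.0% of all genes and again 6 of the 9. The median log2 ratio of replicate 2 over replicate 1 was -0.30 for the 9 genes and 0.01 for all genes. In footprints of bulk tissue, fewer cells of a type, less RNA per cell, fewer ribosomes per RNA and library preparation cannot be told apart.

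App had the largest difference of the 9, a log2 ratio of -0.96 (95% counting interval -1.04 to -0.88) for which the exact binomial test gave an adjusted p of 7.01e-112. Aplp1 followed at -0.90 (-1.00 to -0.80; adjusted p = 6.29e-64, exact binomial). Itm2b had a log2 ratio of -0.70 (-0.83 to -0.57; adjusted p = 2.99e-23, exact binomial). The differences of Itm2c and Aplp2 were smaller, at -0.33 (-0.49 to -0.17) and -0.30 (-0.40 to -0.20), where the exact binomial test gave adjusted p-values of 6.72e-04 and 2.50e-07. Ncstn moved the other way, at 0.38 (0.14 to 0.63; adjusted p = 0.0118, exact binomial).

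The remaining secretase genes had log2 ratios of -0.04 (-0.28 to 0.20) for Bace1, 0.24 (0.01 to 0.48) for Adam10 and -0.09 (-0.54 to 0.38) for Psen2. Their adjusted p-values in the exact binomial test were 0.885, 0.164 and 0.878. For Psen2, with 56 footprints in replicate 1, the interval leaves room for a difference in either direction.

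Scaling matters for the weaker calls. TMM scaling lowers each log2 ratio by 0.13 against plain library totals, and of all called genes 34.2% were higher in replicate 2 with TMM but 60.7% with library totals. With library totals Itm2c was no longer called, at -0.20 and an adjusted exact binomial p of 0.0609, and Adam10 was called higher, at 0.36 with an adjusted exact binomial p of 0.0129. App, Aplp1 and Itm2b were lower in replicate 2 and called under both scalings, at -0.83, -0.78 and -0.58 with library totals. With only the transcript of highest count for each gene, Aplp2 (-0.18), Itm2c (-0.17) and Ncstn (0.46) were no longer called, and App, Aplp1 and Itm2b were. A test that adds a dispersion estimated from the same 2 libraries (edgeR's exact test) called 0 of the 9, with 3 at an unadjusted p under 0.05.

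The log2 ratio fell with footprint density over the whole table, and the precursor and Itm2 genes sit at its dense end. Genes were placed in 20 bins by mean CPM per kilobase of the longest transcript. App, Aplp1, Aplp2 and Itm2b lay in the densest bin, where the median log2 ratio was -0.36 and 60.3% of genes were called lower in replicate 2. Itm2c lay in the next, with a median of -0.18 and 33.7% called lower. In its bin 4.62% of genes had a log2 ratio below that of App, 6.81% below that of Aplp1, 16.4% below that of Itm2b and 56.7% below that of Aplp2. When each bin's median was removed, App, Aplp1 and Itm2b were still called lower, at -0.60, -0.55 and -0.35, and Ncstn higher at 0.44. Itm2c fell to -0.15 (adjusted exact binomial p = 0.220), and Aplp2 changed sign, to 0.05 (adjusted exact binomial p = 0.572).

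**Figure D4:**
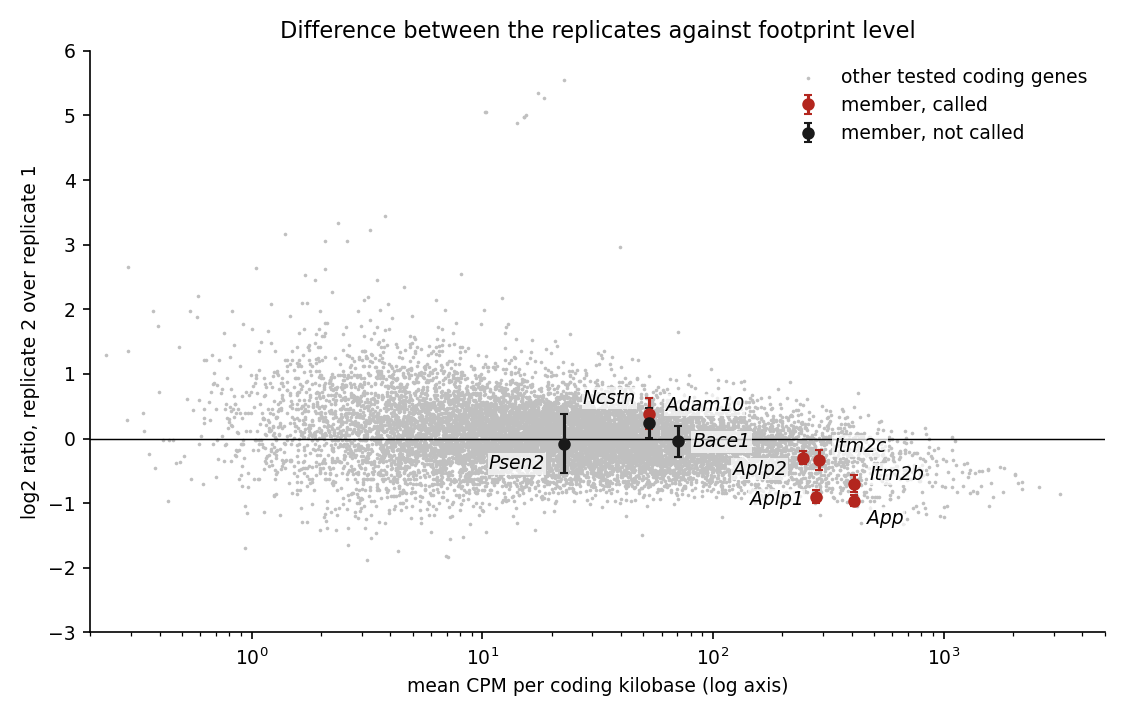
Log2 ratio of replicate 2 over replicate 1 with TMM scaling against mean CPM per coding kilobase on a log axis; grey points are the other tested coding genes, red and black points are the 9 genes that the exact binomial test called or did not call, and bars are 95% counting intervals. App at -0.96 and Aplp1 at -0.90 lie in the lower part of the grey points at their level, and the secretase genes lie among the grey points. In the density bin of App and Aplp1, 4.62% and 6.81% of genes had lower log2 ratios.

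Markers of brain cell types were set beside these differences and beside the shares over all tested genes, 17.4% called and 11.5% called lower. All 42 marker genes of 8 cell types had footprints in both, none being at 0. The 7 neuronal markers took 0.549% of the footprints in replicate 1 and 0.447% in replicate 2, with 4 of 7 called lower, and 4 of the 7 lay in the densest bin, where 60.3% of genes were called lower. The 5 red cell markers went from 0.248% to 0.170%, with 4 of 5 called lower and 4 of 5 in that same bin. The 4 of choroid plexus went from 0.0629% to 0.0331%, with 1 of 4 called lower. That gene was Ttr, which carries thyroid hormone and also lay in the densest bin; the other 3 took 0.00471% and 0.00545%, none of them called, in a split made after the values were seen. The 6 oligodendrocyte lineage markers took 0.0663% and 0.0896%, with 2 called higher and 2 lower. The 6 astrocyte markers took 0.187% and 0.189%, with 1 called lower. Microglial markers took 0.0213% and 0.0200%, endothelial markers 0.0238% and 0.0212% and meningeal markers 0.0696% and 0.0627%. The test called 2 of 5 microglial and 1 of 5 endothelial markers lower, and 3 of 4 meningeal markers, 1 higher and 2 lower. Their part in the differences of App, Aplp1 and Itm2b was not tested.

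Other genes of the pathway were read from 7 lists, of which 98 of 100 genes were in the table and 97 were tested. The exact binomial test called 31 of the 97, 27 lower and 4 higher in replicate 2. Over all genes it called 17.4%, with 11.5% lower and 5.95% higher. At a mean count of at least 100 it called 33 of 77, 28 lower and 5 higher, beside 34.0% of all genes. Of the 97, 11 lay in the densest bin. Their median log2 ratio was -0.07, against 0.01 for all genes. With library totals 27 of the 97 were called, 16 lower and 11 higher, beside 19.0% of all genes. With the density trend removed 31 were called, 19 lower and 12 higher, beside 15.8% of all genes. The split between directions in these lists thus depends on both choices.

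Of 8 further genes of the secretases and the Itm2 family, the test called Itm2a, which was lower in replicate 2 at -0.41 with an adjusted exact binomial p of 0.0152. Log2 ratios of gamma-secretase subunits were -0.23 for Psenen, 0.03 for Aph1a, -0.10 for Aph1b and 0.13 for Aph1c, none of them called. Adam17 had 0.67 (adjusted exact binomial p = 0.0540), Bace2 0.68 and Adam9 -0.03.

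Adaptors that bind the cytoplasmic tails of the App family were called in 6 of 16 genes, 5 of them lower. Over all tested genes 17.4% were called and 11.5% called lower. Of the 16 adaptors, 1 lay in the densest bin. Apbb1, also called Fe65, had the highest level of the list, 222 ± 12.3 CPM per coding kilobase, and a log2 ratio of -0.01. Apba1, a Mint adaptor, had a log2 ratio of -0.65, with 545 footprints in replicate 1 and 1068 in replicate 2. The acetyltransferase gene Kat5, whose product can join Apbb1 and the App tail, had -0.59, and the kinesin adaptor Mapk8ip1 had -0.24. Apbb2 was called higher, at 0.33 with an adjusted exact binomial p of 0.0496.

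Sorting and trafficking genes were called in 8 of 22, all 8 lower in replicate 2, beside 17.4% called and 11.5% lower over all genes. Of the 22, 4 lay in the densest bin, where 60.3% of genes were called lower. Nsg1, a neuronal endosomal protein, had the highest level at 1425 ± 258 CPM per coding kilobase, above App in both libraries. The retromer subunit Vps26b had the lowest log2 ratio of the list, -0.65, and the cargo receptor Tmed10 had -0.59. The clathrin adaptor Picalm at -0.26 and the membrane-bending protein gene Bin1 at -0.31 were the called genes nearest to 0. Of the 6 tetraspanins in the list, proteins that escort Adam10, Tspan5 had the highest level at 172 ± 40.5 CPM per coding kilobase. It was also the 1 called, higher in replicate 2 at 0.36. Tspan10 had no footprint in either library.

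Of 15 genes for peptide degradation and receptors, 7 were called, 6 of them lower, beside 17.4% called and 11.5% lower over all genes. Of the 15, 3 lay in the densest bin. Apoe, the lipid carrier made by astrocytes, was highest at 2039 ± 439 CPM per coding kilobase. The protease inhibitor gene Cst3 had a log2 ratio of -0.85 and the prion protein gene Prnp -0.82, and Clu had -0.22. Nrd1, which encodes nardilysin, was called higher at 0.55, its footprints numbering 280 in replicate 1 and 1264 in replicate 2. Among 11 other intramembrane proteases, convertases and metalloprotease inhibitors, 3 were called lower, beside 11.5% of all genes. The 3 were Timp2 at -0.63, Timp3 at -0.55 and Sppl2b at -0.43. Timp2 had the highest level of the 11, 360 ± 87.8 CPM per coding kilobase. Furin, the convertase that trims Itm2b and Bace1, had 17.4 ± 1.10 CPM per coding kilobase and a log2 ratio of 0.00; it was named after its values were seen.

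Of 20 genes listed as other secretase substrates, among them Notch receptors and adhesion proteins, 5 were called, 4 lower and 1 higher. Over all tested genes 17.4% were called, 11.5% lower and 5.95% higher, so this count is not far from that share. Of the 20, 3 lay in the densest bin. Their median log2 ratio was -0.01. The heparan sulfate proteoglycan gene Sdc3 had the highest level, 438 ± 109 CPM per coding kilobase, and with Notch3 the lowest log2 ratio, -0.64 for each. Cntn2, an axonal adhesion protein, was called higher at 0.28, and Sez6l, a Bace1 substrate, lower at -0.18.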

How the data were processed

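The authors deposited 1 table of whole-number footprint counts per transcript, not normalized, with annotated lengths. Per the labels' protocols, fragments of 25 to 35 nucleotides were selected after RNase I digestion of pooled polysome fractions. The submitters' processing notes name Trimmomatic 0.36, Bowtie2 2.2.6, SAMtools and build GRCm38.p4. The annotation release and the treatment of duplicates, strand and multiple matches are not given in the sources used here, and coordinates and sequences were not used here.

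Counts were summed over the transcripts of a gene. Intervals are exact at 95%, treat each footprint as an independent count and cover counting error only. PCR copies are not independent molecules. To the extent that copies were counted, the intervals are too narrow and the exact binomial p-values too small. TMM factors from edgeR 4.0.16 were 0.957 and 1.04. With 1 group there is no contrast for a quasi-likelihood fit, so a two-sided exact binomial test (scipy 1.17.1) was used. Calls were made at an adjusted p under 0.05, and log2 ratios had a prior of 0.5 CPM. The test was tried on data simulated with counting noise alone. Its false calls under a wider spread between libraries were not tested. DESeq2 1.42.0 gave alternative size factors. Named genes were the 9 genes, 8 other genes of the secretases and the Itm2 family, and of each further list the gene with the highest level and up to the 2 highest and 2 lowest log2 ratios among called genes. The genes and lists were chosen with earlier results of these data known. Apbb3 and Hm13 were listed but not analysed here. A further listed gene is not reported here.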

Additional observations from a re-analysis of the deposited data

How the results depend on the processing

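The calls between the libraries rest on how noise and transcripts are treated. With the transcript of highest count in place of the sum, 1444 genes were called in place of 2861, with 3 of the 9 genes (App, Aplp1 and Itm2b) and 18 of the pathway genes. The edgeR exact test with the common dispersion of the same libraries called 11 genes, 0 of the 9 and 0 of the pathway genes, with 719, 3 and 2 at an unadjusted p under 0.05; its dispersion comes from the difference that it then tests. Library totals, DESeq2 size factors, no filter, a minimum of 100 counts, coding transcripts alone and removal of the density trend kept all 3 numbers within 1.5 times. Log2 ratios changed sign for Bace1, to 0.08 with library totals and 0.02 with the highest transcript, for Psen2, to 0.04 with library totals, and for Aplp2, to 0.05 with the density trend removed. The summed share of the 9 genes was 0.356% of footprints on coding transcripts and 0.440% of those on highest transcripts, and 0.243% to 0.336% in single libraries. For Ncstn and Adam10 the highest transcript is a decay target, so their levels on that basis cannot be read as coding levels. No paired analysis was possible because the replicates form 1 group. Without Ttr, left out after seeing the data, the share of the choroid plexus markers in replicate 2 over that in replicate 1 was 1.16 in place of 0.526. Depth limits genes with few footprints, such as Psen2 with 56 and Bace2 with 10 in replicate 1.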
